A study of Homo sapiens with 9 samples.

Results

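Voltage and transmitter gated ion channels were followed as a group in PC-3 spheroids that over-expressed 1 of the 2 splice forms of NF-YA, the DNA-binding subunit of the CCAAT-binding factor NF-Y. The members were all gene symbols in the deposited gene tables that begin with KCN and a further letter, CACNA, GABR, GRIA, GRID, GRIK or GRIN, together with the pore genes SCN1A to SCN11A. This rule, which used no measured value, took 187 of 27111 genes. Of these, 156 were grouped as pore-forming or auxiliary channel subunits, the regulator KCNRG being counted with the auxiliary ones, and 30 are noncoding, antisense or readthrough symbols. The remaining symbol, GRID2IP, encodes a scaffold protein of the delta glutamate receptor and no channel.

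PC-3 is a human cell line from a prostate cancer metastasis. The 3 lines compared were made by lentiviral transduction and puromycin selection with an Empty vector, with the long murine isoform (NF-YAl) or with the short murine isoform (NF-YAs), which lacks a stretch of the glutamine-rich activation domain. All were grown as multicellular tumor spheroids in Matrigel-containing medium, and several spheroids were pooled for each library. Each line gave 3 libraries (A, B and C for Empty and NF-YAs, and A, B and D for NF-YAl) of ribosomal-RNA-depleted total RNA, described by the study as independent experiments. The sources used here do not say whether the stable lines were transduced anew for each, so the p-values cover the spread between these libraries, which may not include that between transductions. The promoter that drove the transgene is not given in the sources used here.

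Voltage-gated potassium, sodium and calcium channels open when the membrane depolarises, and auxiliary subunits set their gating and their transport to the surface. Calcium-activated potassium channels such as the BK channel respond to intracellular calcium, inward rectifiers and K2P leak channels hold the resting potential, and GABA-A and ionotropic glutamate receptors open on binding a transmitter. Most of these genes are known for their roles in nerve and muscle. Several, among them the BK channel, the intermediate-conductance channel KCNN4 and T-type calcium channels, are also known in epithelial cancer cells, where they take part in calcium entry, cell volume and migration.

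Libraries held 18076979 to 27163976 estimated read counts. NFYA itself, whose count can include reads of the murine transgene, was at 89.2, 96.7 and 89.4 normalised counts (CPM) in the Empty libraries, 287, 383 and 353 CPM in NF-YAl and 264, 263 and 254 CPM in NF-YAs, so both transgenic lines stood above every Empty library. Epithelial keratins were abundant, with KRT8, KRT18 and KRT19 between 70.4 and 569 TPM, a length-corrected level, but KRT8 was lower than in Empty by a log2 difference (± SE) of -1.33 ± 0.10 in NF-YAl (adjusted p = 2.50e-06) and -0.78 ± 0.10 in NF-YAs (adjusted p = 7.91e-05). KRT18 had -0.42 ± 0.10 and -0.49 ± 0.10 and KRT19 -0.71 ± 0.10 and -0.79 ± 0.10, while EPCAM, at 0.61 to 6.68 TPM, was higher in both lines (2.16 ± 0.25 with adjusted p = 5.49e-05, and 1.46 ± 0.26 with adjusted p = 8.78e-04, by edgeR as for the channels). The part of these shifts in the channel results was not tested. The luminal prostate marker KLK3 and the neuroendocrine factor INSM1 had 0 counts in every library. The summed level of 8 neuroendocrine and neuronal markers was 0.91 to 1.36 TPM in Empty, 1.75 to 3.5 TPM in NF-YAl and 1.61 to 2.78 TPM in NF-YAs, mostly from SYP and RBFOX3, and its part in the channel results was not tested. On the TPM scale NF-YAl library D was 1.59 times the median library for the same CPM, and the other libraries 0.823 (Empty C) to 1.12 times (NF-YAs A). TPM, which corrects for transcript length, was therefore used to compare genes with each other, and CPM scaled by the trimmed mean of M values (TMM) to test differences between lines. Marker sums, counts of expressed genes and transcript sums are also given by line in TPM and carry this difference of scale.

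Most of the channel subunit genes were not expressed in any line, taking at least 1 TPM in all 3 libraries of a line as expressed. This level was met by 26 of the 156 subunit genes of Empty, 32 of NF-YAl and 36 of NF-YAs, by 40 in at least 1 line and by 22 in all 3. Of the 156, 34 were silent, with at most 3 counts in every library, 40 had trace counts that did not pass the filter on low counts, and 82 were tested. Over all 187 members the corresponding numbers were 50 silent, 44 with trace counts and 93 tested, and no trace member had more than 23 counts in a library. In bulk libraries, fewer cells that express a channel and less RNA per cell cannot be told apart.

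A single channel gene held a large part of the channel RNA. KCNMA1, the pore subunit of the large-conductance calcium-activated potassium (BK) channel, had the highest mean TPM of all subunits at 201 over the 9 libraries, and took 41.7 to 44.3% of the summed TPM of all channel subunits in Empty, 27.2 to 30.5% in NF-YAl and 49.6 to 54.5% in NF-YAs. KCNN4, the intermediate-conductance calcium-activated potassium channel, followed at 92.9 TPM and KCNK1, a K2P leak channel, at 27.5 TPM. High levels were also found for KCNG1, an electrically silent subunit that joins other voltage-gated potassium subunits, at 18.8 TPM, the T-type calcium channel CACNA1H at 17.5 TPM and the sodium channel SCN8A at 9.23 TPM. The potassium channel beta subunit KCNAB2, the sodium channel SCN3A and the K2P member KCNK15 had 7.04, 5.57 and 5.46 TPM.

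The 22 subunits expressed in every line came mainly from the potassium channels. Among them were the pore subunits KCNA7, KCND1 and KCNG1, the auxiliary subunits KCNAB2, KCNIP2 and KCNIP3, and the regulator KCNRG. The others included the calcium-activated KCNMA1, KCNMB3 and KCNN4, the inward rectifiers KCNJ11, KCNJ13 and KCNJ14, and the K2P channels KCNK1, KCNK6 and KCNK15. The sodium channels were SCN3A, SCN8A and SCN11A, and CACNA1H was the single calcium channel pore. In the annotation, exons of KCNRG overlap TRIM13 and those of KCNJ14 overlap GRWD1 on the same strand. Exons of KCNJ13 overlap GIGYF2 and those of SCN11A overlap WDR48 on the opposite strand. The levels of such genes may include reads of these partners, which was not tested. No transmitter receptor subunit met the limit in all 3 lines. KCNAB1, KCNAB3, KCNE4, KCNJ5, KCNK12 and KCNMB4 met it in NF-YAl and NF-YAs and not in Empty. KCND2, KCNF1, KCNH2, KCNH3 and KCNJ12 met it in NF-YAs alone, KCNC4, KCNG3 and GRIK2 in NF-YAl alone, SCN2A, GABRA3 and GRIN2D in Empty and NF-YAs, and CACNA2D2 in Empty and NF-YAl. Meeting the limit in 1 line and missing it in another is no test of a difference, and KCNC4, KCNAB1, KCNAB3, KCNJ5 and SCN2A were not called between any pair of lines.

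Transmitter receptors were mostly off. Of 19 GABA-A receptor subunits, 10 were silent (GABRA4, GABRA5, GABRB1, GABRB2, GABRD, GABRE, GABRG3, GABRP, GABRR1 and GABRR3) and 4 were tested, GABRA3 and GABRR2 among them. The AMPA receptor subunit GRIA2 and the NMDA receptor subunit GRIN2B were silent, and the obligatory NMDA receptor subunit GRIN1 reached only trace counts, although GRIN2C, GRIN2D, GRIN3A and GRIN3B were tested. GRIA4 led the AMPA receptors at 0.10, 0.193 and 0.197 TPM in Empty, NF-YAl and NF-YAs, and the delta receptor GRID1 had at most 14 counts in a library. Among voltage-gated potassium pores the silent genes were KCNA1, KCNA2, KCNA4, KCNA5, KCNA6, KCNA10, KCNB2, KCND3, KCNG4, KCNH4 and KCNS3. The other silent subunits were KCNMB1, KCNJ1, KCNJ4, KCNJ16, KCNK3, KCNK16, KCNK17, KCNK18, SCN10A, CACNA1F and GRIK3.

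The question of the design was which genes change with each NF-YA isoform and which differ between the isoforms. A gene was called differentially expressed (DEG) at an adjusted p under 0.01 and an absolute log2 fold change (log2FC) above 1, by the quasi-likelihood F test of edgeR on the whole table of 17108 tested genes with Benjamini-Hochberg adjustment, and all adjusted p values below are of this kind. In NF-YAl, 15 of the 93 tested members were higher than in Empty (16.1%), beside 4.76% of all tested genes, and 6 were lower (6.45%), beside 3.5% of all. NF-YAs gave 16 higher (17.2%) and 7 lower members (7.53%), beside 5.44 and 3.9% of all genes. Their median log2FC was 0.14 in NF-YAl and 0.23 in NF-YAs, against 0.01 and -0.00 over all tested genes. Between the isoforms, 3 members were higher in NF-YAl (3.23%, beside 1.74% of all) and 9 were higher in NF-YAs (9.68%, beside 2.86% of all).

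The 56 calls fell on 31 members, 29 of which encode channel subunits. Both comparisons with Empty share the 3 Empty libraries, which by itself favours calls in the same direction. Members higher in both lines included GRID2IP, KCNE4, KCNH3, KCNIP1, KCNJ8, KCNK12, KCNMB4 and SCN9A. Members lower in both included GABRA3, KCNE1, KCNIP4-IT1, KCNK1 and SCN3A. No member was called in opposite directions. The share of all tested genes called in both lines was not computed, so this is not read as particular to channels. Library values below are CPM in the order A, B, C for Empty and NF-YAs and A, B, D for NF-YAl, and log2FC is given with its standard error (SE).

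**Figure D1:**
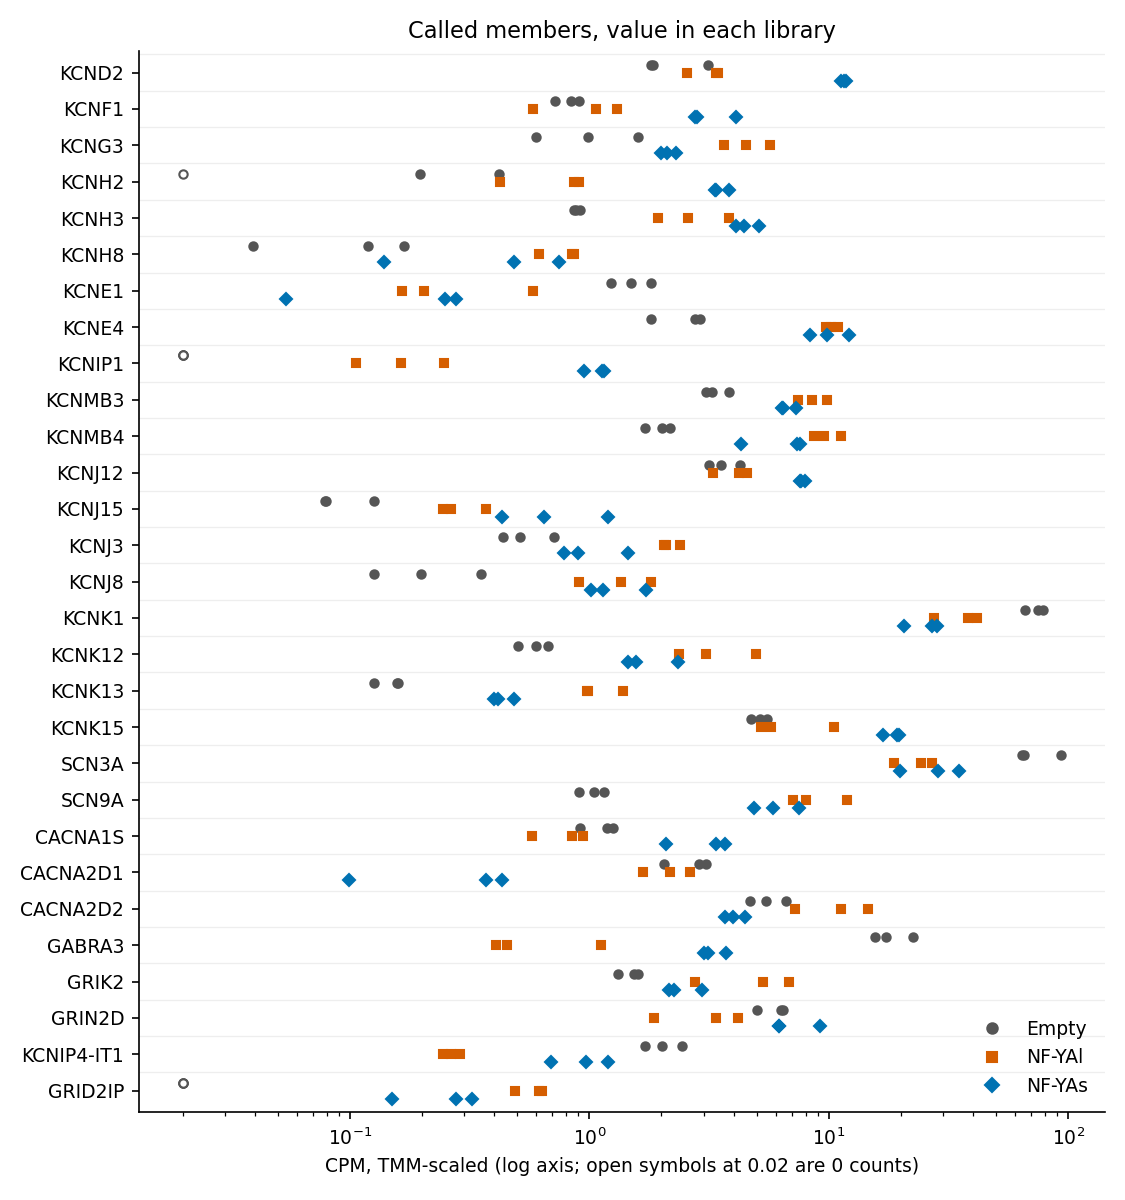
TMM-scaled CPM (horizontal log axis) of 29 called members in each of the 9 libraries. Grey circles are Empty, orange squares NF-YAl and blue diamonds NF-YAs, and open symbols mark 0 counts. KCNK1, SCN3A and GABRA3 lie to the right in Empty, while KCNIP1 and GRID2IP had 0 counts there.

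Voltage-gated potassium pore subunits changed in both directions. KCNH3 rose in both lines, KCNG3 and KCNH8 rose in NF-YAl, and KCND2, KCNF1 and KCNH2 rose in NF-YAs, so that of the 22 tested pore subunits 3 rose and 1 fell in NF-YAl and 4 rose and 1 fell in NF-YAs. Of all tested genes, 4.76% rose and 3.5% fell in NF-YAl, and 5.44% rose and 3.9% fell in NF-YAs. KCNG1, the most abundant of the family, had a log2FC of -0.26 ± 0.14 in NF-YAl and 0.39 ± 0.14 in NF-YAs, neither of which passed.

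The A-type current subunit KCND2 (chr7:119913229-120390391, GRCh37) and KCNIP1 (chr5:169780491-170163636), a calcium-binding auxiliary subunit of that channel family, were both highest in NF-YAs. KCND2 was at 1.85, 3.14 and 1.81 CPM in Empty, 2.55, 3.39 and 3.45 CPM in NF-YAl and 11.6, 11.7 and 11.2 CPM in NF-YAs. NF-YAs therefore stood above all other libraries, with a log2FC of 2.34 ± 0.22 against Empty (adjusted p = 1.21e-05), while NF-YAl overlapped Empty. KCNIP1 had 0 counts in all Empty libraries, 0.106 to 0.246 CPM in NF-YAl and 0.946 to 1.15 CPM in NF-YAs. Against a floor of 3 counts over the Empty group the NF-YAl level was at least 4.40-fold higher, with an adjusted p of 0.00468, and the NF-YAs level at least 26.7-fold higher, with an adjusted p of 4.52e-05. The NF-YAl call rested on 12 counts in all and was lost without Empty A, Empty B, Empty C, NF-YAl B or NF-YAl D in turn (adjusted p 0.012 to 0.016). The direct difference of the isoforms was -1.87 ± 0.22 for KCND2 (adjusted p = 1.39e-04) and -2.57 ± 0.42 for KCNIP1 (adjusted p = 0.00208), the latter lost without NF-YAl B or NF-YAs C (adjusted p 0.0111 and 0.0128).

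Among the ether-a-go-go family, KCNH2 (chr7:150642049-150675409), whose product carries the rapid repolarising current of the heart, had 15 counts in all Empty libraries together. Its level was 0.419, 0 and 0.197 CPM in Empty, 0.424, 0.859 and 0.904 CPM in NF-YAl and 3.34, 3.38 and 3.82 CPM in NF-YAs. The NF-YAs libraries were well above both other lines, at a log2FC of 4.08 ± 0.54 against Empty (adjusted p = 1.17e-04). NF-YAl against NF-YAs gave -2.24 ± 0.45 (adjusted p = 0.00442), a call lost without NF-YAl B or any 1 of the NF-YAs libraries (adjusted p 0.0143 to 0.0220). KCNH3, a neuronal relative, was at 0.881, 0.914 and 0.866 CPM in Empty, 3.82, 2.58 and 1.93 CPM in NF-YAl and 4.09, 4.43 and 5.11 CPM in NF-YAs. Both lines were above Empty, by 1.63 ± 0.28 (adjusted p = 8.27e-04) and 2.35 ± 0.27 (adjusted p = 4.75e-05), and MCRS1, whose exons overlap those of KCNH3 on the opposite strand, had 0.04 ± 0.09 and 0.48 ± 0.09. The library kit keeps strand but its use in counting is not stated, so reads of overlapping partners may not be told apart here. KCNH8 ranged from 0.0394 to 0.168 CPM in Empty to 0.616 to 0.859 CPM in NF-YAl (log2FC 2.78 ± 0.60, adjusted p = 0.00406), and its call was lost without Empty A, Empty B, Empty C or NF-YAl B (adjusted p 0.0102 to 0.0242).

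KCNF1 and KCNG3 encode electrically silent subunits that modify other voltage-gated potassium channels. KCNF1 was called in NF-YAs and KCNG3 in NF-YAl. KCNF1 was at 0.839, 0.715 and 0.905 CPM in Empty, 0.583, 1.31 and 1.07 CPM in NF-YAl and 2.8, 4.08 and 2.76 CPM in NF-YAs, with a log2FC of 1.96 ± 0.31 in NF-YAs (adjusted p = 3.97e-04) and -1.68 ± 0.30 between the isoforms (adjusted p = 0.00225). KCNG3 was at 1.59, 0.596 and 0.984 CPM in Empty, 5.68, 3.64 and 4.52 CPM in NF-YAl and 2.1, 1.99 and 2.3 CPM in NF-YAs, with a log2FC of 2.12 ± 0.31 in NF-YAl (adjusted p = 3.07e-04). The NF-YAs value of KCNG3, 1.01 ± 0.32, did not pass (adjusted p = 0.0286), and its difference between isoforms did not either (adjusted p = 0.0188). Without NF-YAs B the direct call of KCNF1 was lost (adjusted p = 0.0148).

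Of the 10 tested auxiliary subunits of voltage-gated potassium channels, KCNE4 and KCNIP1 rose and KCNE1 fell in both lines. Over the whole table, higher calls made up 4.76% (NF-YAl) and 5.44% (NF-YAs) of genes, and lower calls 3.5% and 3.9%. The NF-YAl calls of KCNIP1 and KCNE1 did not hold in every fit that left out 1 library. KCNE4, an inhibitory single-span subunit, was at 2.77, 2.9 and 1.81 CPM in Empty, 10.2, 11 and 9.78 CPM in NF-YAl and 12.1, 8.31 and 9.81 CPM in NF-YAs. The log2FC was nearly equal in the lines, at 2.05 ± 0.21 (adjusted p = 2.10e-05) and 2.01 ± 0.21 (adjusted p = 1.96e-05), and the direct difference was 0.03 ± 0.19. KCNE1, the partner of KCNQ1 in the slow cardiac current, was at 1.23 to 1.8 CPM in Empty, 0.164 to 0.583 CPM in NF-YAl and 0.0539 to 0.276 CPM in NF-YAs, a log2FC of -2.30 ± 0.47 (adjusted p = 0.00266) and -2.90 ± 0.51 (adjusted p = 8.91e-04). The NF-YAl call of KCNE1 was lost without Empty A, Empty C or NF-YAl B (adjusted p 0.0109 to 0.0167) and with a replicate block (adjusted p = 0.0122). The median log2FC of the 100 tested genes nearest to KCNE1 on chromosome 21 was -0.29 in NF-YAl and -0.44 in NF-YAs, whose part in the result was not tested.

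Accessory subunits of the BK channel rose in NF-YAl while the RNA of its pore did not. KCNMA1 (chr10:78629359-79398127) was at 475, 523 and 511 CPM in Empty, 344, 349 and 267 CPM in NF-YAl and 569.7, 674 and 599.5 CPM in NF-YAs. The 3 lines did not overlap, NF-YAl being lowest, but no comparison reached the fold limit, with -0.65 ± 0.12 in NF-YAl (adjusted p = 0.0013), 0.29 ± 0.12 in NF-YAs (adjusted p = 0.077) and -0.94 ± 0.12 between them (adjusted p = 2.51e-04). KCNMB4, the neuronal beta subunit, was at 2.01, 1.71 and 2.16 CPM in Empty, 11.2, 9.57 and 8.71 CPM in NF-YAl and 7.59, 4.28 and 7.37 CPM in NF-YAs, and rose by 2.32 ± 0.23 (adjusted p = 2.17e-05) and 1.71 ± 0.24 (adjusted p = 1.66e-04). Both lines stood above all Empty libraries, and the difference between them (0.61 ± 0.21) did not pass.

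KCNMB3, a beta subunit that can inactivate the channel, was at 3.82, 3.26 and 3.07 CPM in Empty, 7.43, 9.81 and 8.5 CPM in NF-YAl and 6.36, 7.27 and 6.45 CPM in NF-YAs. It was called in NF-YAl (1.35 ± 0.17, adjusted p = 9.97e-05), and in NF-YAs its 0.98 ± 0.17 stayed just under the fold limit (adjusted p = 8.25e-04). Its exons overlap PIK3CA on the opposite strand, which had 0.50 ± 0.12 in NF-YAl, and the 100 nearest tested genes had a median log2FC of 0.51 in NF-YAl and 0.10 in NF-YAs. The part of that regional shift in the KCNMB3 result was not tested. LRRC38, a gamma subunit that eases opening of the BK channel and is no member by its symbol, was at 0, 0.0795 and 0.0394 CPM in Empty, 1.49, 21.3 and 20.5 CPM in NF-YAl and 0.592, 0.199 and 1.34 CPM in NF-YAs. With 3 counts over the Empty libraries, the ratio in NF-YAl was 384-fold (exact Poisson interval of those counts, 131 to 1863, adjusted p = 2.62e-04), and NF-YAl A was far below the other NF-YAl libraries. KCNN4, the other abundant calcium-activated channel, had 0.29 ± 0.16 and 0.19 ± 0.16, and its libraries overlapped those of Empty in both lines.

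The TPM of KCNMA1 came largely from short transcripts. Among its 17 listed transcripts, 4 had a length of 872 to 1363 bases and 13 of 6103 to 12084 bases. The short ones summed to 140, 107 and 109 TPM in Empty, 57.4, 52.6 and 83.7 TPM in NF-YAl and 185, 215 and 166 TPM in NF-YAs. Their share of the gene's TPM was 61.6 ± 1.64% (SD, n = 3) for Empty, 50.7 ± 2.35% for NF-YAl and 66.1 ± 1.43% for NF-YAs, without overlap between the lines. The long transcripts summed to 73.5 ± 7.42, 62.1 ± 10.8 and 96.1 ± 7.70 TPM. These shares are estimates from short reads that several transcripts can hold and were not tested.

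**Figure D2:**
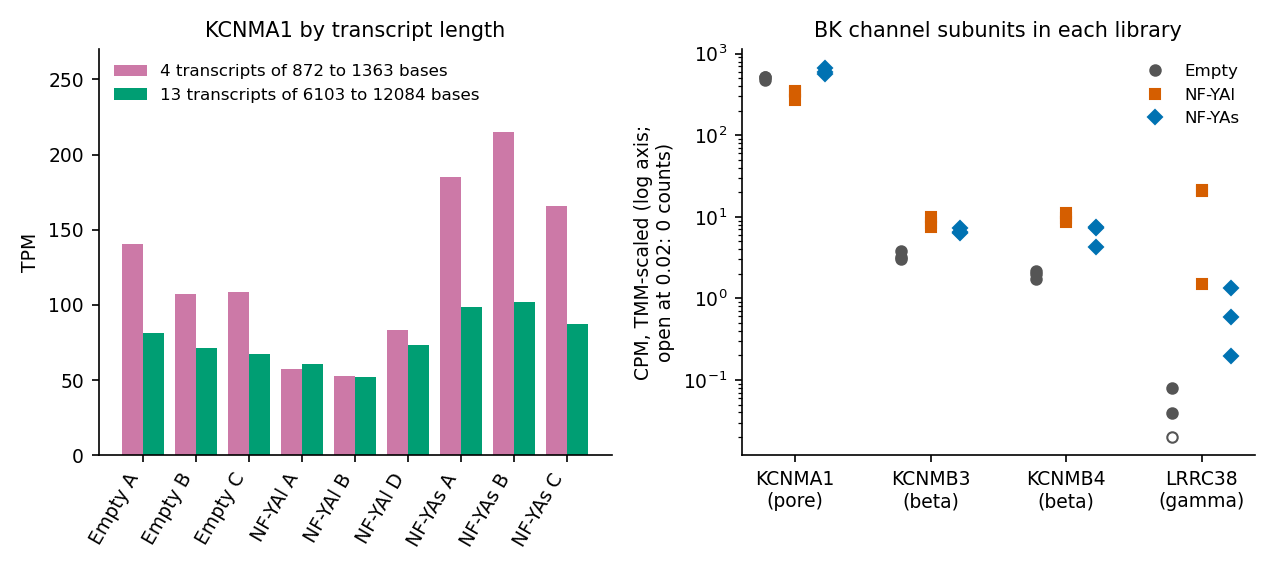
Left, TPM of KCNMA1 in each library, summed over its short (pink bars) and long (green bars) transcripts. Right, TMM-scaled CPM (log axis) of the BK channel subunits in each library, with an open symbol for 0 counts. Short transcripts led in all Empty and NF-YAs libraries, and in NF-YAl the levels were close, with the long ones higher in library A alone.

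Inward rectifiers were low. Of 10 tested members, KCNJ3 and KCNJ8 rose in NF-YAl and KCNJ8, KCNJ12 and KCNJ15 in NF-YAs, beside 4.76 and 5.44% of all tested genes. None was called lower, but with 3.5 and 3.9% of all genes lower, a count of 0 among 10 members is near the background. KCNJ12, a strong rectifier of heart and muscle, was at 3.15, 4.25 and 3.54 CPM in Empty, 4.56, 4.21 and 3.29 CPM in NF-YAl and 7.92, 7.66 and 7.6 CPM in NF-YAs, so NF-YAs alone was above Empty (1.08 ± 0.18, adjusted p = 6.80e-04). Near-identical copies of this gene exist and could share its reads, and its log2FC was 0.99 without Empty A. KCNJ8, the pore of a vascular ATP-sensitive channel, was at 0.126 to 0.354 CPM in Empty, 0.904 to 1.8 CPM in NF-YAl and 1.01 to 1.72 CPM in NF-YAs, with 2.53 ± 0.44 (adjusted p = 9.34e-04) and 2.47 ± 0.44 (adjusted p = 0.00102).

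KCNJ3, a G-protein-gated rectifier, rose from 0.437 to 0.713 CPM to 2.04 to 2.39 CPM in NF-YAl (1.96 ± 0.31, adjusted p = 4.99e-04), beside 0.783 to 1.45 CPM in NF-YAs. KCNJ15 rose from 0.0787 to 0.126 CPM to 0.431 to 1.19 CPM in NF-YAs (2.94 ± 0.53, adjusted p = 0.00113), where its 100 nearest tested genes had a median log2FC of -0.42. KCNJ13, which led the family at 3.18, 3.37 and 3.83 TPM in Empty, NF-YAl and NF-YAs, had -0.23 ± 0.16 and 0.12 ± 0.16 and was not called. Its level may include reads of GIGYF2, whose exons it overlaps on the opposite strand.

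K2P leak channels changed in both directions. KCNK1, the most abundant member, fell in both lines, and KCNK12, KCNK13 and KCNK15 rose in at least 1. KCNK1 (chr1:233749852-233808260) was at 66, 78.4 and 75 CPM in Empty, 27.4, 38.2 and 41.7 CPM in NF-YAl and 27, 20.6 and 28.4 CPM in NF-YAs. Every Empty library was higher than every transgenic one, with -1.03 ± 0.16 in NF-YAl (adjusted p = 4.10e-04) and -1.53 ± 0.16 in NF-YAs (adjusted p = 2.47e-05). The NF-YAl value lay at the fold limit and was -0.98 without Empty B and -0.87 without NF-YAl A. KCNK15 was at 5.16, 5.52 and 4.72 CPM in Empty, 10.5, 5.73 and 5.22 CPM in NF-YAl and 19.2, 16.8 and 19.6 CPM in NF-YAs.

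KCNK15 thus rose in NF-YAs (1.85 ± 0.23, adjusted p = 7.40e-05) and differed between the isoforms (-1.39 ± 0.22, adjusted p = 0.00119). Its exons overlap RIMS4 on the opposite strand, which also rose in NF-YAs (2.75 ± 0.28, adjusted p = 1.96e-05), and the antisense KCNK15-AS1, which did not pass (0.39 ± 0.56). KCNK12, whose product carries no current when expressed alone, was at 0.503, 0.596 and 0.669 CPM in Empty, 4.99, 2.37 and 3.08 CPM in NF-YAl and 1.45, 2.34 and 1.57 CPM in NF-YAs. It rose by 2.54 ± 0.34 (adjusted p = 1.58e-04) and 1.59 ± 0.35 (adjusted p = 0.00406), and the NF-YAs call was lost without Empty A, Empty B, Empty C or NF-YAs B (adjusted p 0.0135 to 0.0222). KCNK13, its halothane-inhibited relative, rose from 0.126 to 0.159 CPM to 0.981 to 1.38 CPM in NF-YAl (2.86 ± 0.37, adjusted p = 1.18e-04), where its 100 nearest tested genes had a median log2FC of 0.19. The NF-YAs value of KCNK13, 1.51 ± 0.42, did not pass (adjusted p = 0.0144).

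The sodium channels SCN3A and SCN9A moved in opposite directions in both lines, while SCN8A, the most abundant, was not called. SCN3A (chr2:165944036-166060560), best known from the developing brain, was at 63.9, 93.1 and 65.5 CPM in Empty, 24.2, 26.9 and 18.7 CPM in NF-YAl and 28.5, 19.9 and 35 CPM in NF-YAs. All transgenic libraries lay below all Empty ones, at a log2FC of -1.67 ± 0.21 for NF-YAl (adjusted p = 1.01e-04) and -1.42 ± 0.21 for NF-YAs (adjusted p = 2.68e-04). SCN9A (chr2:167051695-167232511), the channel of pain-sensing neurons, was at 1.05, 1.15 and 0.905 CPM in Empty, 11.9, 8.02 and 7.07 CPM in NF-YAl and 5.82, 4.88 and 7.51 CPM in NF-YAs. Its log2FC was 3.11 ± 0.26 (adjusted p = 7.03e-06) and 2.55 ± 0.26 (adjusted p = 2.21e-05), and in the annotation its exons overlap the antisense SCN1A-AS1. SCN8A had 0.06 ± 0.16 in NF-YAl and 0.12 ± 0.16 in NF-YAs. SCN3A also shifted between its transcripts, the form of 8978 bases taking 43.4 ± 0.821% (SD, n = 3) of its TPM for Empty, 32.5 ± 2.19% for NF-YAl and 23.6 ± 6.47% for NF-YAs, and the form of 9125 bases nearly all of the rest. This shift was not tested.

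Calcium channels changed in their auxiliary subunits and in a pore subunit of low abundance. CACNA1H, the T-type pore that led the family, had 0.44 ± 0.15 in NF-YAl and -0.08 ± 0.15 in NF-YAs and was not called. CACNA2D1 (chr7:81575760-82073272), an alpha2delta subunit that brings channels to the surface and binds gabapentin, was at 3.06, 2.86 and 2.05 CPM in Empty, 2.17, 1.68 and 2.63 CPM in NF-YAl and 0.431, 0.0995 and 0.369 CPM in NF-YAs. The NF-YAs libraries were far below all others, at -3.13 ± 0.40 against Empty (adjusted p = 8.89e-05) and 2.83 ± 0.40 for NF-YAl against NF-YAs (adjusted p = 5.46e-04), and NF-YAl overlapped Empty. Its relative CACNA2D2 was at 4.7, 5.48 and 6.61 CPM in Empty, 14.6, 11.2 and 7.19 CPM in NF-YAl and 3.99, 3.68 and 4.47 CPM in NF-YAs. It was higher in NF-YAl than in NF-YAs by 1.44 ± 0.24 (adjusted p = 0.00157, and 0.0111 without NF-YAs B), and its 0.97 ± 0.23 against Empty missed the fold limit. CACNA1S, the L-type pore of skeletal muscle, was at 0.914 to 1.26 CPM in Empty, 0.575 to 0.941 CPM in NF-YAl and 2.09 to 3.69 CPM in NF-YAs (1.45 ± 0.29 against Empty, adjusted p = 0.00212, and -1.95 ± 0.30 between isoforms, adjusted p = 9.60e-04). The call of CACNA1S against Empty was lost without Empty B, Empty C, NF-YAs A or NF-YAs C (adjusted p 0.01002 to 0.0142).

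Among the GABA-A receptor subunits, GABRA3 fell in both lines. GABRA3 (chrX:151334706-151619787), an alpha subunit, was at 15.6, 22.5 and 17.3 CPM in Empty, 1.11, 0.409 and 0.452 CPM in NF-YAl and 3.02, 3.14 and 3.73 CPM in NF-YAs. The 3 lines were separated, with NF-YAl lowest, at -4.86 ± 0.30 in NF-YAl (adjusted p = 7.84e-07), -2.48 ± 0.25 in NF-YAs (adjusted p = 1.62e-05) and -2.38 ± 0.32 between the isoforms (adjusted p = 3.80e-04). Its 100 nearest tested genes on chromosome X had a median log2FC of -0.74 in NF-YAl and -0.73 in NF-YAs, and the part of this regional shift in the GABRA3 result was not tested.

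**Figure D3:**
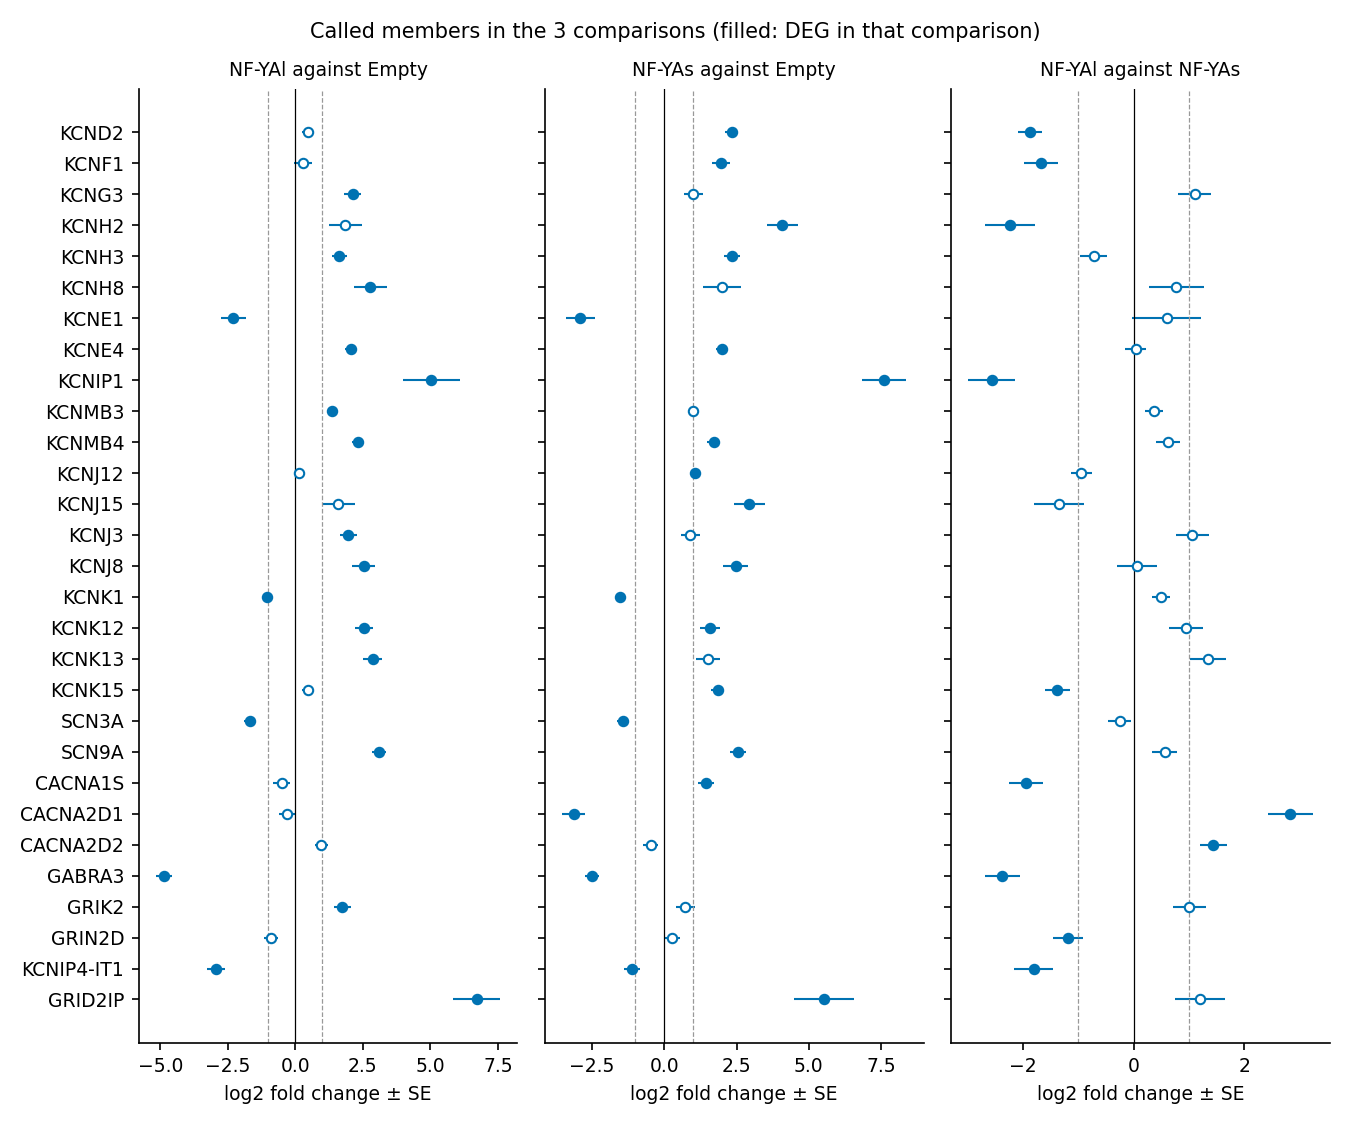
Log2 fold change with its SE (horizontal axes, whose ranges differ) of 29 called members in the 3 comparisons, first each transgenic line against Empty and then the isoforms against each other. Filled points are DEGs in that comparison and dashed lines mark a log2FC of 1 in either direction. Members move to the same side in the first 2 panels where both are called, and the fitted values of KCNIP1 and GRID2IP rest on 0 Empty counts and are no bounds.

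Among glutamate receptors, the kainate receptor subunit GRIK2 (chr6:101410577-102529497) rose in NF-YAl. It was at 1.59, 1.31 and 1.53 CPM in Empty, 6.84, 5.32 and 2.75 CPM in NF-YAl and 2.26, 2.14 and 2.95 CPM in NF-YAs, a log2FC of 1.74 ± 0.31 in NF-YAl (adjusted p = 0.00115) and 0.73 ± 0.32 in NF-YAs (adjusted p = 0.0972), and NF-YAl D was close to the NF-YAs libraries. NETO1 and NETO2, auxiliary proteins of kainate receptors, changed in opposite directions in NF-YAl. NETO1 was at 0.923, 1.67 and 0.551 CPM in Empty and 5.09, 3.72 and 2.67 CPM in NF-YAl (1.86 ± 0.36, adjusted p = 0.00182). NETO2, much the more abundant, was at 156, 143 and 148 CPM in Empty and 53.7, 44 and 55.2 CPM in NF-YAl (-1.55 ± 0.11, adjusted p = 2.05e-06). In NF-YAs both moved the same way without a call, NETO1 by 1.19 ± 0.36 (adjusted p = 0.0240) and NETO2 by -0.89 ± 0.11 (adjusted p = 7.00e-05). The NMDA receptor subunit GRIN2D was at 6.46, 5.01 and 6.34 CPM in Empty, 1.86, 4.17 and 3.37 CPM in NF-YAl and 6.19, 9.21 and 6.17 CPM in NF-YAs. It was called between the isoforms alone (-1.18 ± 0.27, adjusted p = 0.00858), and the call was lost in every fit that left out a library other than NF-YAl B or NF-YAl D (adjusted p 0.011 to 0.0472). GRID2IP had 0 counts in Empty, 0.491 to 0.637 CPM in NF-YAl and 0.149 to 0.323 CPM in NF-YAs, at least 14.3-fold (adjusted p = 2.68e-04) and 6.16-fold (adjusted p = 0.00217) higher, and its 100 nearest tested genes had medians of 0.24 and 0.38.

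The noncoding members were led by KCNQ1OT1, the antisense RNA of the imprinted KCNQ1 region, with 32.7, 37.8 and 25.5 TPM in Empty, NF-YAl and NF-YAs. It was not called (-0.05 ± 0.20 and -0.50 ± 0.20), and KCNQ1 itself was at 0.157 to 0.358 CPM in Empty. KCNMA1-AS2 and KCNMA1-AS3 were the other expressed noncoding members, at 2.63 and 7.72 TPM over the 9 libraries, and neither was called. KCNIP4-IT1, an intronic transcript of KCNIP4, was called in all 3 comparisons although KCNIP4 had only trace counts. It was at 1.71 to 2.44 CPM in Empty, 0.245 to 0.288 CPM in NF-YAl and 0.691 to 1.19 CPM in NF-YAs, with -2.92 ± 0.33 in NF-YAl (adjusted p = 5.07e-05) and -1.11 ± 0.28 in NF-YAs (adjusted p = 0.00893). The NF-YAs call was lost without each library in turn other than NF-YAl A or NF-YAl D (adjusted p 0.0124 to 0.0506) and by DESeq2 (adjusted p = 0.0142), whereas the NF-YAl call was kept in all of these fits.

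The isoforms were compared directly in the same fit. CACNA2D1 and CACNA2D2 were among the members higher in NF-YAl, and CACNA1S, GABRA3, GRIN2D, KCND2, KCNF1, KCNH2, KCNIP1, KCNIP4-IT1 and KCNK15 were higher in NF-YAs. The potassium channel pore subunits of the second group, KCND2, KCNF1, KCNH2 and KCNK15, were not called in NF-YAl against Empty, and the auxiliary KCNIP1 was called higher there. In contrast, GABRA3 and KCNIP4-IT1 fell in both lines and less in NF-YAs. Of the members named, CACNA2D1, KCND2, GABRA3, KCNK15 and CACNA1S kept the call in each fit that left out 1 library. KCNIP4-IT1 was -1.81 ± 0.36 between isoforms (adjusted p = 0.00408) and was lost without NF-YAl B, NF-YAs A or NF-YAs B (adjusted p 0.0138 to 0.0220).

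A list of 30 partner genes that the symbol rule does not hold gave 19 tested genes, of which 6 rose and 3 fell in NF-YAl and 3 rose and 1 fell in NF-YAs, beside 4.76% higher and 3.5% lower among all tested genes of the first comparison and 5.44 and 3.9% of the second. Beside LRRC38 and the NETO genes, CACNG7, a regulator of AMPA receptors, was at 1.8, 2.03 and 1.93 CPM in Empty, 5.04, 7.73 and 7.07 CPM in NF-YAl and 13.6, 13.9 and 15.3 CPM in NF-YAs. It rose in both lines (1.79 ± 0.19 with adjusted p = 2.81e-05, and 2.89 ± 0.19 with adjusted p = 8.99e-07), and more in NF-YAs (-1.10 ± 0.17 for NF-YAl against NF-YAs, adjusted p = 8.27e-04). GABBR2, a subunit of the metabotropic GABA-B receptor, rose by 1.88 ± 0.29 (adjusted p = 4.56e-04) and 2.64 ± 0.30 (adjusted p = 3.75e-05), and its partner GABBR1 was called in NF-YAl (1.01 ± 0.24, adjusted p = 0.00735) although NF-YAl D lay within the Empty range. The sodium leak channel NALCN rose by 1.58 ± 0.20 (adjusted p = 8.77e-05) and 1.22 ± 0.20 (adjusted p = 5.18e-04). CACNG4 fell in both lines (-2.58 ± 0.34 and -1.45 ± 0.31), SCN4B fell in NF-YAl (-1.67 ± 0.37), and CACNG8 was lower in NF-YAl than in NF-YAs (-1.03 ± 0.22).

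The CCAAT box, the sequence that NF-Y binds, was searched on both strands (CCAAT or ATTGG) in the 250 bases before each listed start. For each gene the first listed promoter was used, whose start can lie inside the gene and need not be the one used in these cells. It was present in 32.0% of all 35116 listed promoters and, with 1 promoter per gene, in 34.5% of 12173 tested genes. Among members it was present in 47 of 139 with a promoter (33.8%) and in 22 of 64 tested (34.4%). These 22 were 17 of 43 members not called (39.5%) and 5 of 21 called members (23.8%). The called ones were CACNA1S, GRID2IP, KCNH2, KCNK1 and KCNMB3, and the shares were not tested. The other 10 called members had no promoter in the table used. The windows of the called channel genes with a match follow with that of KCND2, which has none although it shared the pattern of KCNH2, from RefSeq on GRCh38.p14, 5′ to 3′ on the strand of the gene, with the motif in capitals.
CACNA1S (chr1:201112427-201112676, minus strand): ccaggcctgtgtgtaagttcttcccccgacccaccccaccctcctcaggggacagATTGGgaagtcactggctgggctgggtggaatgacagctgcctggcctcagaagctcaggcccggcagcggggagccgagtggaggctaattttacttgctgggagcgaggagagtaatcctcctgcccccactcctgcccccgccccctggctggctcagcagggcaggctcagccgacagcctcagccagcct
KCNH2 (chr7:150978322-150978571, minus strand): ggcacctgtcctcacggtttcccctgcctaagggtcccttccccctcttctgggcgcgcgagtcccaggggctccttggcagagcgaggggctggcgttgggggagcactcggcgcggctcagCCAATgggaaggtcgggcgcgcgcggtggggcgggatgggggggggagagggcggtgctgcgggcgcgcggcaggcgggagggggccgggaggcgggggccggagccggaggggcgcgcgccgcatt
KCNK1 (chr1:233613856-233614105, plus strand): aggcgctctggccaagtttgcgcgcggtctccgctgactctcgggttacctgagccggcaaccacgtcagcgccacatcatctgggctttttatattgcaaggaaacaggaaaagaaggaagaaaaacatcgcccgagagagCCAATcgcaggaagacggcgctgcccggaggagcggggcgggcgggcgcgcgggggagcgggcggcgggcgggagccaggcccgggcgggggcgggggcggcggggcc
KCNMB3 (chr3:179259892-179260141, minus strand): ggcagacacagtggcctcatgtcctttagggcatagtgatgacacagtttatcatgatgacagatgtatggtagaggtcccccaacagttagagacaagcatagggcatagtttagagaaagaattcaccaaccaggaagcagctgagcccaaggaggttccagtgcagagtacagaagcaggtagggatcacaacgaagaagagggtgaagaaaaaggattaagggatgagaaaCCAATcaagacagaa
KCND2 (chr7:120272925-120273174, plus strand): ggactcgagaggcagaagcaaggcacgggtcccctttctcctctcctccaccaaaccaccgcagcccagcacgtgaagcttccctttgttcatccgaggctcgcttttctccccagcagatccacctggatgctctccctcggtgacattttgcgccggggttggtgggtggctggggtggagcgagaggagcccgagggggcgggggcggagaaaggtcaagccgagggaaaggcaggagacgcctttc
The first base of the motif lay 195 bases before the listed start in CACNA1S, 127 in KCNH2, 108 in KCNK1 and 15 in KCNMB3. KCNK1 fell in both lines and KCNH2 rose in NF-YAs, so genes with the motif were called in both directions, and a match is a description of the sequence and no evidence of binding.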

How the data were processed

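Total RNA of PC-3 spheroids was sequenced in 9 libraries, 3 each of the Empty, NF-YAl and NF-YAs lines, from a stranded TruSeq total RNA kit. The authors aligned reads to human transcripts of GRCh37/hg19 with Bowtie2 within RSEM and deposited, per gene and per transcript, the expected count (an estimated count in which reads of several transcripts are shared), TPM, and for each transcript its percent of the TPM of its gene. The files were used as deposited and the groups taken from the sample titles.

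Expected counts were rounded to whole numbers. Genes were kept by filterByExpr (17108 of 27111), scaled by TMM and fitted in edgeR 4.0.16 (R 4.3.3) with 1 quasi-likelihood model over all 9 libraries without covariates, and DEGs had a Benjamini-Hochberg adjusted p under 0.01 over all tested genes and an absolute log2FC above 1. SE is the absolute log2FC divided by the square root of F. The alternatives included DESeq2 1.42.0. As a check that the code ran as intended, edgeR, its block fit and DESeq2 were applied to simulated data with 200 changed genes, all above a mean of 1 CPM. The simulation gave all genes the same dispersion and had no replicate effect, so it does not bear on calls at low counts. Replicates differed beyond counting noise in all pairs, the mean chi-square over genes being 6.08 to 86.7. Intervals and floors cover counting error only.

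Gene positions, exon overlaps and nearest genes came from GENCODE on GRCh37. Promoters came from RefSeq on GRCh38.p14, matched by symbol (139 of 187 members) with the first listed promoter kept for each gene. A few items are not reported here. Otherwise, named were all DEG members, the highest member of each family by TPM, the highest 10 of all and the DEGs of the partner list, with values per library where a line had a mean of at least 1 TPM. The members and lists were chosen with earlier results of these data known.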

Additional observations from a re-analysis of the deposited data

Results flagged for a closer look

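Members with a direct difference between NF-YAl and NF-YAs are listed here because the effects of the isoforms against Empty then differ by a test of the difference itself. The log2FC of NF-YAl against NF-YAs was 2.83 for CACNA2D1 and 1.44 for CACNA2D2, which were higher in NF-YAl. It was -1.95 for CACNA1S, -2.38 for GABRA3, -1.18 for GRIN2D, -1.87 for KCND2, -1.68 for KCNF1, -2.24 for KCNH2, -2.57 for KCNIP1, -1.81 for KCNIP4-IT1 and -1.39 for KCNK15, which were higher in NF-YAs. With 3 libraries in each line, no search for single outlying libraries was made.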

How the results depend on the processing

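Over the alternatives tried (DESeq2, RLE scaling, no filter on low counts, a mean of at least 1 CPM, only the 2 groups compared, a replicate block, an adjusted p under 0.05 and each library left out), no call of a member reversed. All 56 calls were kept with RLE scaling, 55 by DESeq2, 55 without a filter, 52 in the fit of only the 2 lines compared and 51 with a replicate block, and 41 were kept in each fit that left out 1 library. The labels do not say whether the replicate letters pair the libraries, and the correlations of the deviations did not settle it. Between Empty and NF-YAs the correlation was 0.111 for A, -0.0036 for B and 0.111 for C. Between Empty and NF-YAl, which share only A and B, it was 0.165 and 0.315. NF-YAl and NF-YAs gave -0.067 for A and 0.184 for B, and pairs of different letters ranged from -0.255 to 0.220. With the replicate block, 15 members rose and 5 fell in NF-YAl, 19 rose and 6 fell in NF-YAs, and 3 were higher and 8 lower in NF-YAl than in NF-YAs. NF-YAl D is the only library with its letter, so its own block term fits it. The block values of NF-YAl therefore rest on NF-YAl A and B. Among the calls that the block took were KCNE1 and KCNIP1 in NF-YAl, KCNIP4-IT1 in NF-YAs and KCNIP4-IT1 between the isoforms.

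Leaving out 1 library gave 13 to 16 higher and 5 to 7 lower members in NF-YAl, 14 to 17 higher and 6 to 7 lower in NF-YAs, and 2 to 4 higher and 5 to 11 lower in NF-YAl than in NF-YAs. At an adjusted p under 0.05 the members higher in NF-YAl than in NF-YAs were 9. At a mean of at least 1 CPM, 10 members rose and 5 fell in NF-YAl and 12 rose and 6 fell in NF-YAs, as 12 of the calls belong to genes that are not tested there. Of the 29, 35 and 39 members (26, 32 and 36 subunits) expressed at 1 TPM in Empty, NF-YAl and NF-YAs, 20, 22 and 20 reached 2 TPM, 43, 48 and 53 reached 0.5 TPM, and 47, 53 and 54 reached 1 CPM in all 3 libraries. Leaving out a library gave 29 to 32, 35 to 44 and 39 to 41, the 44 coming without NF-YAl B. Depth limits the lowest calls, since KCNIP1, GRID2IP, KCNJ15, KCNE1, KCNH2 and CACNA2D1, among others, rest on 0 to 20 counts over the 3 libraries of at least 1 line.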
